A study of Mus musculus with 59 samples.

Results

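The comparison set 5 brainstem tumours, numbered 7 to 11, against 3 cultures of hindbrain neurospheres, lettered D, E and F, all carrying the tagged wild-type (WT) form of histone H3.3 and all profiled for H3K27me3. These 8 libraries were chosen by genotype, tissue and antibody among 59 samples, a series built around mice in which the K27M change was introduced into H3f3a, a gene for histone H3.3. Chromatin immunoprecipitation and sequencing (ChIP-seq) was used throughout the series, and H3K27me3 was listed for 20 samples. The tumours carried H3f3aLSL-WT-Tag/+ with Nestin-creERT2, together with the alleles Trp53flox/flox and LSL-PDGFRαV544ins. The neurospheres were Nestin-cre and H3f3aLSL-WT-Tag/+, came from e15.5 embryos and were kept in neural precursor culture. Both systems therefore share the tagged WT histone switched on by a Nestin-driven Cre, which acts in neural precursors and their descendants. The mutant receptor PDGFRα and the conditional loss of Trp53, the gene of the tumour suppressor p53, were present in the tumours alone. The tumours were snap-frozen bulk tissue, and the labels give no age for them. Tumour state, these alleles, Cre timing, culture, age and cell composition differ together between the groups and cannot be told apart. In bulk tissue, fewer cells with the mark at a region and less mark per cell cannot be told apart either. Tumour 9 and neurosphere F were labelled male and the other 6 libraries female, so the X and Y chromosomes were left out and 19 autosomes were compared.

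H3K27me3 is the trimethyl mark on lysine 27 of histone H3 laid down by Polycomb repressive complex 2, and it is found over developmental genes that a cell keeps silent. Such genes, among them the Hox clusters that pattern the body axis, often carry wide and dense domains in neural precursors. H3K4me3 marks promoters and H3K27ac marks active promoters and enhancers. A promoter with both H3K4me3 and H3K27me3 is called bivalent when both sit on the same chromatin, which separate ChIP-seq lists from bulk samples cannot show.

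Each library was deposited as a list of islands, stretches of enriched windows, with the count of reads in each. The summed autosomal island reads were 5325678, 4778347, 6422234, 14400936 and 1878972 in tumours 7 to 11, and 6199003, 6931048 and 9072944 in neurospheres D, E and F. Tumour 10 had the most reads and lay above the neurosphere range, and tumour 11 had the fewest and lay below it. The tumours with 5325678 and 4778347 reads also lay below that range. The sources used here state no total sequencing depth, so how far these sums reflect depth was not tested. Results that rest on the extent of calling are given with and without tumours 10 and 11. Leaving these tumours out does not even out the sums, because tumours with fewer reads than any neurosphere remain. Chromatin of Drosophila S2 cells had been added for scaling, but no scale factor was used here, and every value below is relative to the marked chromatin of its own library. Nothing in the labels states that each sample is its own animal or embryo, and p-values therefore refer to the spread among these samples only.

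The tumours' H3K27me3 reads were spread more evenly over islands than those of the neurospheres. The 1000 islands with most reads held 26.5%, 31.5%, 35.2%, 26.8% and 33.9% of autosomal island reads in tumours 7 to 11. In neurospheres D, E and F they held 50.6%, 51.8% and 49.7%. Every tumour lay below every neurosphere, with group means of 30.8% ± 4.02 (SD, n = 5) and 50.7% ± 1.08 (SD, n = 3). The mean log2 difference was -0.73, with p = 0.0357 by a two-sided exact permutation test, the lowest that 5 against 3 libraries allow. The curve of reads held by the strongest islands shows the same order at 100 islands, where the tumours held 7.64% to 11.3% and the neurospheres 18.1% to 20.0%.

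**Figure D1:**
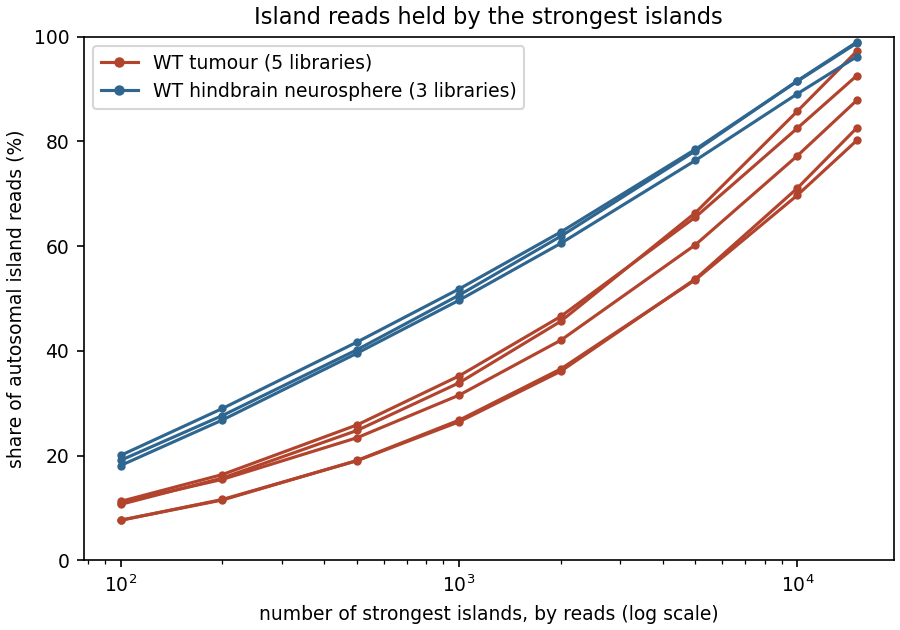
Share of autosomal island reads (vertical axis, %) held by a given number of strongest islands (horizontal axis, log scale), with 1 line per library and tumours and neurospheres in different colours. At 1000 islands the 5 tumours lie between 26.5% and 35.2% and the 3 neurospheres between 49.7% and 51.8%.

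The length of a list moves this share. When every list was limited to its 16008 strongest islands, the log2 difference was -0.59 and the exact permutation p was again 0.0357. When every list was limited to its strongest islands up to 77.6 Mb, the length of the shortest list, the shares were 55.6% in tumours and 71.7% in neurospheres. The difference then fell to -0.41 and no longer passed (exact permutation test, p = 0.107). Without tumours 10 and 11 the difference was -0.72 (exact permutation test, p = 0.1, the smallest that 3 against 3 can give). Wide islands showed the same order. Islands of at least 20 kb held 18.1% to 43.0% of reads in the tumours and 51.0% to 56.1% in the neurospheres.

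Covered length did not separate the groups. Autosomal islands covered 194.5, 163.5, 201.4, 302.0 and 77.6 Mb in tumours 7 to 11, and 144.9, 150.0 and 190.6 Mb in neurospheres D, E and F. The tumour mean was 187.8 Mb ± 80.6 (SD, n = 5) and the neurosphere mean 161.8 Mb ± 25.04 (SD, n = 3). The mean log2 values differed by 0.10 (two-sided exact permutation test, p = 0.714). Tumours 10 and 11 lay at the top and the bottom of all 8 libraries. Without tumour 10 the log2 difference was -0.11, and without tumour 11 it was 0.38, so its direction rested on single libraries. Without both tumours it was 0.21 (exact permutation test, p = 0.2).

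The tumours held more islands on average, at 24833 ± 6229 (SD, n = 5) against 17249 ± 1933 (SD, n = 3). The mean log2 values differed by 0.49, which did not pass the threshold (two-sided exact permutation test, p = 0.0714). Tumours 7, 8, 9 and 10 had 27810, 25057, 21251 and 33190 islands and lay above the neurospheres at 16008, 16262 and 19476. Tumour 11 had 16858 and lay inside their range. Without tumour 11 the groups did not overlap (exact permutation test, p = 0.0571, the smallest that 4 against 3 can give). Without tumours 10 and 11 the log2 difference was 0.52 (exact permutation test, p = 0.1, the smallest that 3 against 3 can give).

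Median island width was 5.0, 4.6, 6.4, 6.2 and 3.2 kb in tumours 7 to 11, and 6.2, 6.4 and 6.4 kb in neurospheres D, E and F. The neurospheres were nearly alike, and the tumours ranged from well below them to their level (two-sided exact permutation test, p = 0.25). The width that splits the covered length evenly was 9.40 kb ± 2.71 (SD, n = 5) in tumours and 11.9 kb ± 0.924 (SD, n = 3) in neurospheres (exact permutation test, p = 0.214). Island reads per kb of island were 24.2 to 47.7 in tumours and 42.8 to 47.6 in neurospheres, with tumour 10 alone at the neurosphere level. The plot of library measures shows that, of its 4 measures, only the share held by the strongest islands had no tumour at the neurosphere level.

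**Figure D2:**
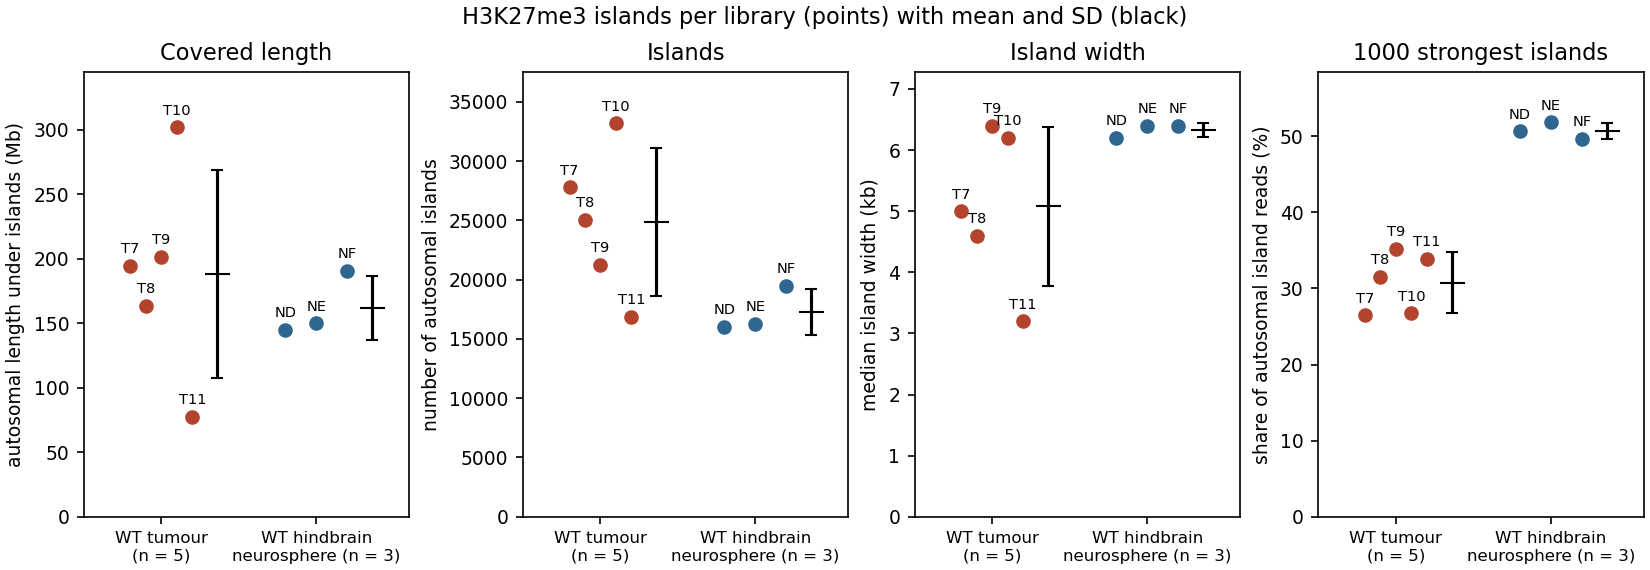
Covered length (Mb), number of islands, median island width (kb) and the part of reads held by the 1000 strongest islands (%), with 1 point per library (T7 to T11, tumours; ND to NF, neurospheres) and the mean and SD in black. Tumour 10 (302.0 Mb) and tumour 11 (77.6 Mb) mark the ends of covered length, and the neurospheres cluster more closely than the tumours in every panel.

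Merging the islands of the 8 lists where they shared 1 bp gave 43075 autosomal regions. An island was present in all 8 libraries at 3288 of them, which are called common regions here. These were wide, with a median of 28.2 kb against 6.40 kb for all merged regions, and held 55.1% of tumour and 67.8% of neurosphere island reads on average. Single libraries made up much of the rest. An island in 1 tumour and no other library accounted for 15735 regions, and an island in 1 neurosphere alone for 2628.

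Fully separated calls were found in both directions, at a balance that depended on how islands were called. An island in all 5 tumours and no neurosphere was found at 899 regions, 2.09% of all merged regions, and an island in all 3 neurospheres and no tumour at 946, which is 2.2%. At the median the tumour-only regions were 15.2 kb wide, and together they held 5.13% of tumour reads. The neurosphere-only regions were 9.40 kb wide and held 3.74% of neurosphere reads. Of the 2627 regions called in exactly 5 libraries, 34.2% were the 5 tumours, and of the 4996 called in exactly 3 libraries, 18.9% were the 3 neurospheres.

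Fisher's exact test found no single region past the adjusted threshold among the 7623 that could be tested, where the smallest adjusted p was 0.0738. With 5 against 3 libraries the only p under 0.05 is 0.0179, which fully separated calls alone reach, so the 1845 regions at that level are the same 899 and 946. With the 16008 strongest islands of every list the counts were 534 tumour-only and 1456 neurosphere-only regions. They were 218 and 1086 when islands had to cover 50% of a region, and 311 and 997 with the 10000 densest islands of every list. Without tumour 11 they were 1806 and 969, without tumour 10 they were 961 and 1553, and without both 2090 and 1630.

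Of the 6 tumour-only regions with most reads, 5 lay on chromosome 5. By mm9 position, counted from 1, the first was chr5:121400201-121485400, with 270.4, 704, 418, 161 and 986 reads per 1000000 autosomal island reads (RPM) in tumours 7 to 11. Tumour 11 was highest and tumour 10 lowest there. The second was chr11:100057401-100160600, with 312, 487, 483, 246 and 497 RPM. The next 4 lay on chromosome 5 again, at chr5:119944001-120034000, chr5:119409601-119467800, chr5:119852601-119943200 and chr5:114124401-114183400, with tumour means of 372, 359.5, 322 and 335 RPM. All 6 held an island in each of the 6 K27M tumours and in none of the 3 K27M hindbrain neurospheres.

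The neurosphere-only region with most reads was chr6:51851401-51962600, with 2182, 782 and 333 RPM in neurospheres D, E and F. The spread between the cultures was wide there. The second, chr1:154873001-154925400, was even, at 529, 632 and 634. The others were chr19:47458401-47563400, chr14:74012001-74044200, chr10:13416201-13450600 and chr9:27000001-27038600, with neurosphere means of 516, 457, 359 and 332 RPM. Each of the 6 held an island in all 3 K27M hindbrain neurospheres. K27M tumours also held islands at 5 of them, in 5 of 6 tumours at the chromosome 6 region and in none at the chromosome 10 region.

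The K27M libraries did not enter the choice of these regions, so they show how far the separated calls recur in other samples of the 2 systems. K27M hindbrain cultures A, B and C carry the same experiment numbers, 1, 2 and 3, as WT cultures D, E and F, so the neurosphere side does not come from separate experiments. K27M tumours shared many tumour-only regions and K27M neurospheres almost none. All 6 K27M tumours held an island at 24.2% of tumour-only regions, against 10.2% of all merged regions. Each K27M tumour held an island at 44.3% to 85.4% of the 899 tumour-only regions, against 15.6% to 42.8% of all merged regions. Each K27M hindbrain culture held one at 0.334% to 0.445% of them, and 7 of the 899 had an island in any of the 3 cultures. In K27M forebrain cultures the share was 0.222% to 0.667%. The neurosphere-only regions showed the opposite order. An island lay at 30.3% to 42.0% of them in K27M hindbrain cultures, at 17.02% to 22.9% in K27M forebrain cultures and at 2.01% to 23.9% in K27M tumours. Over all merged regions these shares were 8.9% to 11.1% in K27M hindbrain and 7.87% to 8.39% in K27M forebrain cultures. All merged regions include many called in a single library, while the separated classes were called in every library of their group. Regions called in an equal number of libraries were not compared. Tumour-only regions were wider than all merged regions, at medians of 15.2 and 6.4 kb, and the excess in K27M tumours depended on width. At 8 to 16 kb all 6 K27M tumours held an island at 20.2% of tumour-only and 10.8% of all merged regions. At 16 to 32 kb these shares were 23.3% and 28.6%, and at 32 to 64 kb 41.4% and 53.1%. For any K27M tumour they were 94.96% and 74.0% at 8 to 16 kb, and 98.6% and 89.7% at 16 to 32 kb. The K27M hindbrain lists are shorter, so an absent island there need not mean an absent mark.

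The tumour H3K4me3 and H3K27ac lists separated the classes as well. An H3K4me3 peak lay in 32.4%, 26.7% and 30.7% of tumour-only regions in tumours 7, 9 and 10. It lay in 15.6%, 13.2% and 14.3% of neurosphere-only regions in the same tumours, below the 16.04% to 18.8% of all merged regions. H3K27ac showed the reverse order between the classes. A peak of the active mark lay in 14.6%, 10.3%, 10.8%, 20.2% and 13.5% of tumour-only regions in tumours 7 to 11, and in 25.9%, 20.8%, 19.2%, 27.9% and 20.1% of neurosphere-only regions. Over all merged regions the shares were 13.9%, 11.2%, 10.4%, 15.8% and 12.1%. Without regard to width, the tumour-only class thus lay near this level, and the neurosphere-only class lay above it in each of the 5 tumours.

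The order was the same within a narrow range of widths. Among regions of 8 to 16 kb, 34.7% of 337 tumour-only and 16% of 400 neurosphere-only regions held an H3K4me3 peak of any of the 3 tumours. For H3K27ac of any of the 5 tumours the shares were 21.7% and 33.8%. All merged regions of that width stood at 25.7% and 24.9%. At 16 to 32 kb the classes held 36.1% and 23.1% for H3K4me3, both below the 42.3% of all merged regions. For H3K27ac they held 27.4% and 43.8%, against 39.95%. At 32 to 64 kb both classes lay below all merged regions in both marks, with 38.7% and 14.3% against 59.9% for H3K4me3. The H3K27ac shares there were 24.3% and 50.0% against 55.6%, with only 28 neurosphere-only regions. Lists of these marks in neurospheres were not used here.

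**Figure D3:**
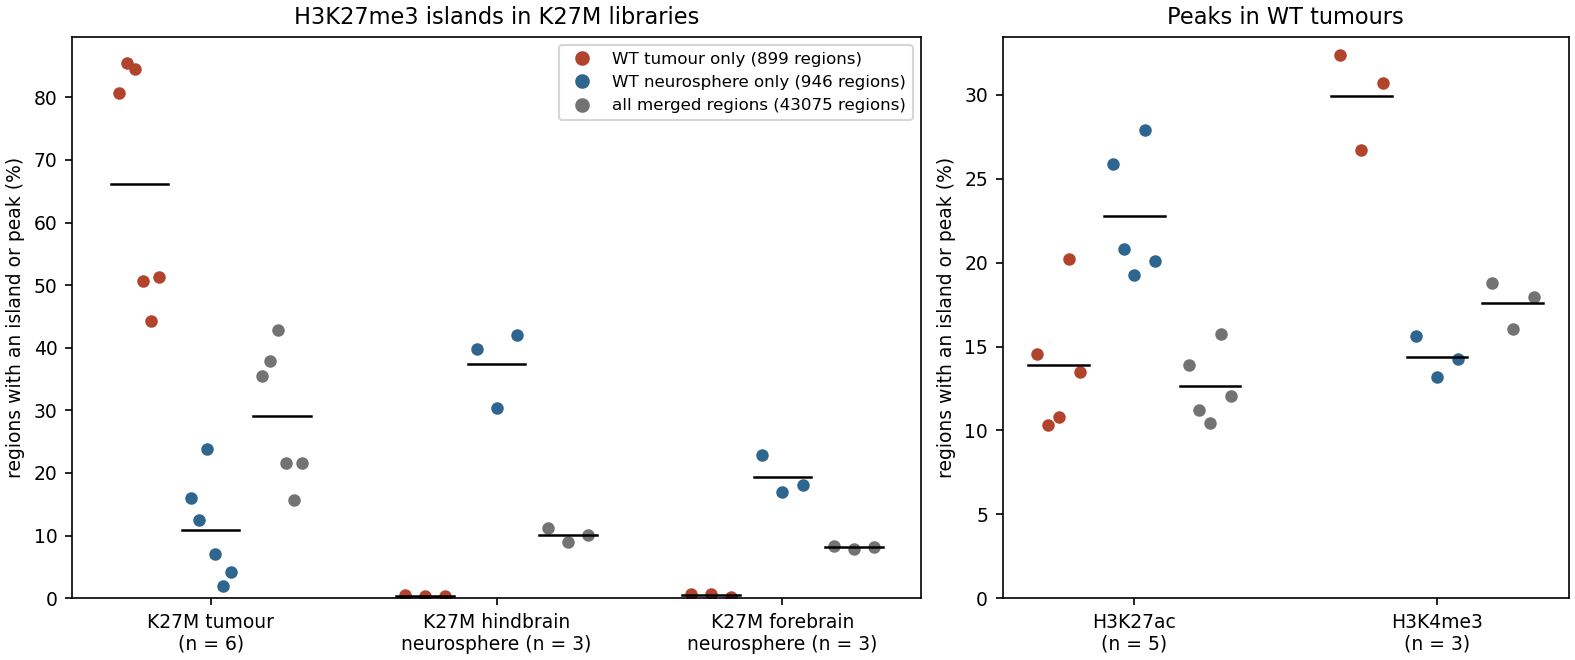
Share of regions (%) with an H3K27me3 island in each K27M library (left) and with an H3K27ac or H3K4me3 peak in each WT tumour (right), for regions called only in WT tumours, only in WT neurospheres, and all merged regions. Points are libraries and black lines their means, and tumour-only regions reach at most 0.445% in K27M hindbrain neurospheres against 44.3% to 85.4% in K27M tumours.

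Within the 3288 common regions, island reads moved in both directions. Relative to the other common regions, 570 (17.3%) rose in tumours and 474 (14.4%) fell at an adjusted p under 0.05 in edgeR's quasi-likelihood test, which makes 31.8% called. At an unadjusted p under 0.05 there were 1452. The read shares of the groups did not overlap at 1266 regions, 38.5% of those tested, among them 520 of those that rose and 443 of those that fell. The split rests on the scaling. Without composition factors 1066 rose and 273 fell, and the median log2 fold of all common regions moved from 0.17 to 0.59.

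The number of calls fell more when any 1 neurosphere was left out than when any 1 tumour was. Leaving out a neurosphere also shrinks the smaller group, and the part of group size in this was not tested. Without neurosphere D 262 rose and 286 fell, without E 232 and 265, and without F 307 and 307. In female libraries alone the counts were 198 and 238. Leaving out any 1 tumour gave between 464 and 592 that rose and between 379 and 550 that fell. DESeq2 called 749 and 655, and 1043 of the 1044 regions called by edgeR were among them.

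The regions that fell were wide and densely marked in neurospheres. Their width had a median of 45.5 kb, and per kb they held a median of 8.33 RPM in neurospheres against 3.37 in tumours. Those that rose were 29.8 kb wide at the median, with 1.32 RPM per kb in neurospheres and 4.16 in tumours. The 2244 regions called in neither direction stood at 2.86 and 3.36. The medians of the 3 classes thus lay between 3.36 and 4.16 in tumours and between 1.32 and 8.33 in neurospheres. The classes were set by this same contrast, so these levels are a description and not a further result.

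H3K27ac was found more often in the regions that fell, which also were wider. Peaks lay in 51.9%, 44.9%, 40.3%, 56.3% and 47.9% of them in tumours 7 to 11, and in 31.2%, 22.5%, 21.4%, 40.5% and 30.2% of those that rose. H3K4me3 peaks lay in 84.6%, 79.96% and 82.7% of the regions that fell and in 70.2%, 64.9% and 70.9% of those that rose, in tumours 7, 9 and 10. Regions called in neither direction stood at 71.0%, 65.6% and 70.2% for H3K4me3, like those that rose. For H3K27ac they stood at 39.7%, 29.8%, 29.7%, 46.5% and 39.5%, between the other classes. The gap in H3K27ac varied with width. A peak of any tumour lay in 73.5% of the 34 regions that fell and 38.2% of the 102 that rose at 8 to 16 kb. The shares were 63.4% of 101 and 45.2% of 186 at 16 to 32 kb, and 67.2% of 177 and 51.7% of 174 at 32 to 64 kb.

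Tumours and neurospheres of the K27M genotype, which did not enter the test, stood in the same order at most of these regions. Of the 570 regions that rose, 145 held an island in all 6 K27M tumours and all 3 K27M hindbrain cultures. The K27M tumours had the higher mean log2 share at 138 of these (95.2%), with a median log2 difference of 2.30. Of the 474 regions that fell, 394 held an island in all 9 libraries, and the K27M tumours were lower at 87.3% of them, with a median of -1.21. Over all 1615 common regions with such islands the median was 0.44, and 60.8% were higher in K27M tumours. For the 1076 of them called in neither direction the median was 0.69, and 73.8% were higher in K27M tumours. Only regions that kept an island in K27M cultures enter these counts.

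Of the 8 largest increases, 5 lay on chromosome 5. The largest was chr5:119215601-119409000, with 916, 1154, 1522, 733 and 2762 RPM in tumours 7 to 11 and 17.9, 13.0 and 35.6 in neurospheres D, E and F. The lowest tumour lay far above the highest neurosphere, and the log2 fold was 5.82 ± 0.55 (SE), with an edgeR adjusted p of 0.000222. Only reads inside islands are counted, so this fold is not separate from called length, which rose by 5.14 on the log2 scale (limma adjusted p = 0.000359). Islands covered 168.6 to 188.6 kb of the region in tumours and 2.6 to 10.0 kb in neurospheres.

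The second was chr5:118228401-118325800, with 425, 415, 657, 179.8 and 1345 RPM in tumours and 12.6, 16.7 and 14.4 in neurospheres. Its log2 fold was 5.18 ± 0.60 (SE), with an edgeR adjusted p of 0.000426. Tumour 11 was the highest library at both regions and tumour 10 the lowest. At chr5:150589801-150678400, the tumours stood at 293, 238, 388, 208 and 415 and the neurospheres at 14.0, 10.8 and 9.15, for a log2 fold of 4.62 ± 0.35 (SE, adjusted p = 0.000107 by edgeR). The tumours lay closer together there than at the first 2 regions.

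The other 5 increases had log2 folds of 3.89 at chr13:21984001-22027200, 3.77 at chr7:131100401-131156800, 3.52 at chr5:149041401-149096200, 3.51 at chr5:148751801-148834000 and 3.41 at chr11:55407801-55461200. The groups do not overlap at any of them, by the rule that chose the regions. All 8 held an island in all 6 K27M tumours. At 5 of the 8 no K27M hindbrain culture held one, and at the other 3 either 1 or 2 cultures did.

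The largest decrease was chr1:38469601-38562000. The tumours stood at 99.1, 13.4, 28.7, 174 and 26.6 RPM and the neurospheres at 1067, 1129 and 1023, for a log2 fold of -4.02 ± 0.74 (SE, adjusted p = 0.00337 by edgeR). The neurospheres were nearly equal and the tumours spread widely. At chr17:36265801-36312200 the tumours stood at 24.0, 59.4, 41.6, 29.9 and 119 and the neurospheres at 695, 664 and 575, for a log2 fold of -3.74 ± 0.43 (SE, adjusted p = 0.000408 by edgeR). At chr16:34396001-34434800 they stood at 62.2, 16.1, 26.5, 57.4 and 26.6 against 376, 408 and 457, for a log2 fold of -3.55 ± 0.45 (SE, adjusted p = 0.000601 by edgeR). All 3 K27M hindbrain cultures held islands at these 3 regions. All 6 K27M tumours did so at the first 2, and 2 of the 6 at the chromosome 16 region.

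The other decreases had log2 folds of -3.24 at chr2:166107401-166258600, -3.09 at chr9:102114601-102179800, -3.07 at chr10:79379801-79421400, -3.06 at chr4:99207401-99342400 and -3.06 at chr10:91469001-91501200. The chromosome 2 region, with tumours at 59.3, 13.2, 65.4, 430.0 and 14.9 against 1048, 1067 and 1200, was the least stable of them (SE 0.99, edgeR adjusted p = 0.0308). Tumour 10 was its highest tumour, and it lost its call in 7 of 15 alternative fits, among them those without tumour 7, without tumour 9 and without each neurosphere. Over those 15 its adjusted p ranged from 0.000874 to 0.139. Without tumour 10 its log2 fold was -4.98, which made it the largest decrease of those named, while the chromosome 1 region moved to -4.83 and the chromosome 9 region to -4.09. The chromosome 9 region lost its call in female libraries alone. K27M samples stood in the reverse order there, with islands in all 6 K27M tumours, at 37.5 to 89.3 RPM, and in 1 of the 3 K27M hindbrain cultures, at 30.7 RPM.

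**Figure D4:**
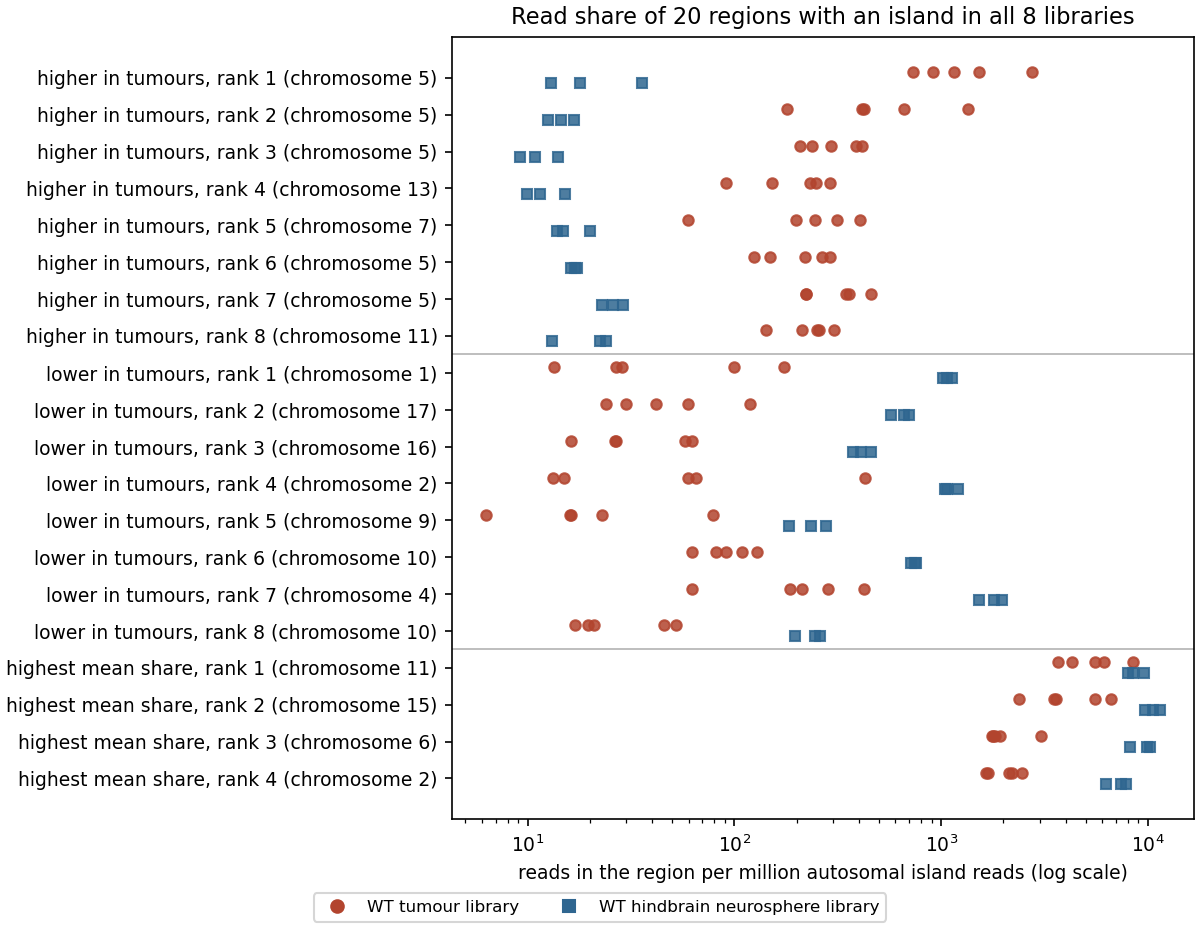
Reads per 1000000 autosomal island reads (RPM, log scale) in each library for 20 common regions: the 8 with the largest log2 fold in each direction among those past the threshold and without overlap, and the 4 with the highest mean share. Tumours are circles and neurospheres squares, and at the first region the tumours lie at 733 to 2762 and the neurospheres at 13.0 to 35.6.

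The 4 common regions with the highest mean share were all lower in tumours. They lay on chromosomes 11, 15, 6 and 2, and the Hoxb, Hoxc, Hoxa and Hoxd clusters lie on these chromosomes in that order. No mm9 annotation was used here, so whether these regions hold the clusters was not determined. At chr6:52093001-52284600 the tumours stood at 1830.0, 1759, 1931, 1778 and 3055 RPM and the neurospheres at 9943, 10243 and 8195. No tumour approached a neurosphere, and the log2 fold was -2.33 ± 0.17 (SE), with an edgeR adjusted p of 0.000107.

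At chr2:74449601-74663600 the tumours stood at 1682, 2201, 2462, 1638 and 2131 and the neurospheres at 7445, 7850.2 and 6289.7, for a log2 fold of -1.95 ± 0.18 (SE, adjusted p = 0.00021 by edgeR). At chr15:102580401-102980600 the tumours stood at 3597, 5571, 3499, 2389 and 6629 and the neurospheres at 10567, 11441 and 9725, for a log2 fold of -1.43 ± 0.25 (SE, adjusted p = 0.00259 by edgeR). Neither region had overlapping groups. At chr11:95936801-96381400 the tumours stood at 4314, 5533, 6141, 3652 and 8480.2 and the neurospheres at 8449, 9549 and 7973, so that tumour 11 lay inside the neurosphere range. Its log2 fold was -0.77 ± 0.20 (SE), with an edgeR adjusted p of 0.0177. The call was lost in 5 of 16 alternative fits, namely both scalings without composition factors, female libraries alone, and those without neurosphere D and without neurosphere E (adjusted p over the 16 from 0.00178 to 0.137). Called lengths at these regions differed by -0.30 to 0.19 on the log2 scale and passed no test (limma adjusted p from 0.366 to 0.768). A called length cannot exceed its merged region, and the neurospheres were at that limit on chromosome 6, with 191.2 to 191.6 of 191.6 kb, so this test has little room there. Every tumour was shorter than every neurosphere at the chromosome 6 region, with 121.2 to 182.4 kb, and at the chromosome 15 region, with 354.6 to 392.0 against 392.6 to 397.6 kb. At the chromosome 11 region every tumour was longer than every neurosphere, with 415.2 to 441.6 against 323.4 to 410.4 kb. The groups overlapped at the chromosome 2 region, with 106.2 to 207.2 against 200.0 to 206.8 kb. All 4 regions held islands in every K27M tumour and K27M culture, and H3K4me3 peaks in tumours 7, 9 and 10. H3K27ac peaks lay in all 5 tumours at 3 of them and in 4 tumours at the chromosome 15 region.

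Called length passed the threshold at few common regions. Its median log2 difference was still 0.96 over the 570 regions that rose in reads and -0.77 over the 474 that fell. Those classes were set by reads inside islands, which include any difference in called length. By limma with Benjamini-Hochberg adjustment, 61 regions (1.86%) differed, of which 47 (1.43%) were longer and 14 (0.426%) shorter in tumours, and 43 and 12 of them had also risen and fallen in reads. At an unadjusted p under 0.05 there were 528. These counts moved with single libraries. Without tumour 11, which had the shortest called lengths, 245 were longer and 40 shorter, without tumour 10 the counts were 46 and 47, and without neurosphere D they were 16 and 2. They were 25 and 4 without tumour 7, 24 and 5 without tumour 9, 22 and 2 without neurosphere E, and 35 and 2 without neurosphere F.

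In fixed bins of 1 Mb, covered length differed at 133 of 2251 bins (5.91%) by limma on the log2 of covered kb plus 10. Tumours had more at 64 (2.84%) and less at 69 (3.07%). At an unadjusted p under 0.05 there were 499. The bins that rose were unevenly placed: 20 lay on chromosome 5 and 16 on chromosome 7, and none, among others, on chromosomes 1, 4 and 9. The bins that fell were most frequent on chromosome 4, with 12, and on chromosomes 9 and 12, with 8 and 7. Tumour-only regions made up the largest part of merged regions on the same chromosomes as the bins that rose, with 121 of 2611 on chromosome 5 (4.63%) and 118 of 3089 on chromosome 7 (3.82%). Neurosphere-only regions made up the largest part on chromosome 18, with 47 of 1330 (3.53%), chromosome 9, with 88 of 2606 (3.38%), and chromosome 4, with 77 of 2352 (3.27%). Bins and regions come from the same 8 lists, so their shared placement is not a separate result.

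The counts of bins depended on the libraries and the scale. Leaving out tumour 11 gave 269 and 94, tumour 10 gave 49 and 143, tumour 7 gave 18 and 32, tumour 8 gave 42 and 65, and tumour 9 gave 20 and 38. Without neurospheres D, E and F in turn they were 15 and 44, 13 and 33, and 15 and 35. Scaling each library to its covered length gave 200 and 241, and adding 1 kb in place of 10 gave 79 and 52.

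The bin with the largest increase lay on chromosome 5 from 119000001 to 120000000. Islands covered 307.8, 367.2, 721.6, 589.2 and 577.2 kb of it in tumours 7 to 11 and 9.2, 2.6 and 13.6 kb in neurospheres D, E and F. Every tumour had far more covered length than any neurosphere, and the log2 difference of kb plus 10 was 4.80 (SE 0.43, limma adjusted p = 0.000221). The bins from 116000001 to 117000000 and from 117000001 to 118000000, which do not adjoin it, ranked next on that chromosome. Over the window from 114000001 to 122000000, chosen after these values were seen, islands covered 26.5%, 33.6%, 48.0%, 43.2% and 39.95% of the length in tumours 7 to 11. They covered 7.04%, 8.51% and 9.70% in neurospheres D, E and F. K27M tumours stood at 14.3% to 38.4%, K27M hindbrain cultures at 2.32% to 3.2% and K27M forebrain cultures at 2.55% to 3.1%.

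The largest decrease was chromosome 9 from 27000001 to 28000000, which holds the neurosphere-only region named above. Covered length was 5.2, 0, 2.4, 43.6 and 2.6 kb in tumours 7 to 11 and 218.8, 241.0 and 310.0 kb in neurospheres D, E and F, a log2 difference of -3.99 (SE 0.62, limma adjusted p = 0.00319). Tumour 10 had the most among the tumours and still lay well below the neurospheres. The next bin, from 28000001 to 29000000, stood at no covered length in 4 tumours, 5.6 kb in tumour 10, and 104.6, 69.6 and 139.4 kb in the neurospheres.

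By chromosome, the tumours placed a larger part of their covered length on chromosome 5. Its share was 8.17%, 9.47%, 11.4%, 7.51% and 13.6% in tumours 7 to 11 and 6.37%, 6.18% and 6.16% in neurospheres D, E and F. All tumours lay above all neurospheres, and tumours 9 and 11 lay highest. K27M tumours stood at 7.39% to 8.30% and K27M hindbrain cultures at 6.58% to 6.74%. Chromosome 9 showed the opposite order, at 4.27% to 7.10% in tumours and 8.20% to 8.61% in neurospheres.

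The groups did not overlap on 8 of 19 chromosomes, higher in tumours on 4 and lower on 4, and no test was made for single chromosomes. The tumours differed more among themselves than the neurospheres on all 19. Chromosome 4 held 2.83% of covered length in tumour 8 and 10.7% in tumour 11, against 7.23% to 7.43% in the neurospheres. The share of H3K27ac peaks on chromosome 5 was 7.62% in tumour 9 and 7.05% in tumour 11 and 6.50% to 6.69% in the other tumours. On chromosome 4 it was 4.94% in tumour 8, 7.19% in tumour 11 and 5.42% to 6.09% in the other tumours. Copy number was not measured in the files used here, and its part in these shares was not tested.

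**Figure D5:**
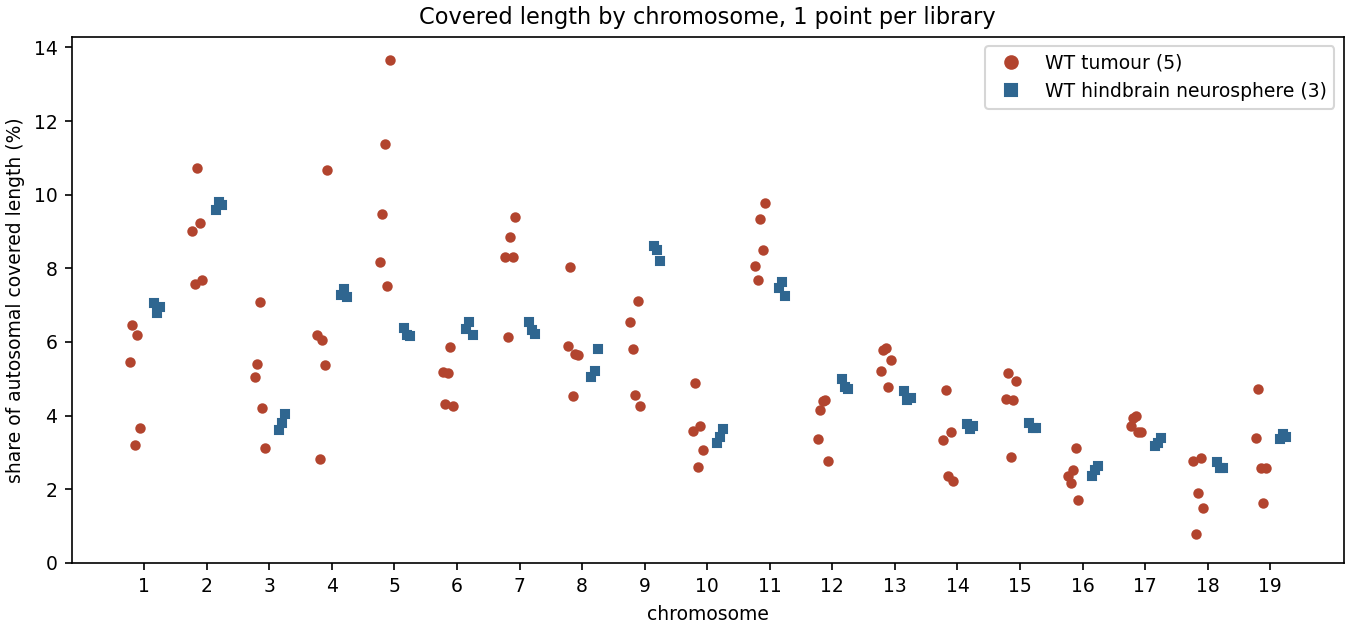
Share of each library's autosomal covered length (vertical axis, %) on each of the 19 autosomes (horizontal axis), with 1 point per library. Tumours scatter more than neurospheres on every chromosome, and on chromosome 5 they lie at 7.51% to 13.6% against 6.16% to 6.37%.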

How the data were processed

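The H3K27me3 lists are SICER islands by their layout, and the file names give the window as 200 bp, the gap as 600 bp and the false discovery rate as 0.00001. Each gives the count of reads per island, as deposited by the authors, in build mm9 per the labels. The submitters' processing notes name BWA 0.7.12, SICER 1.1, MACS2, Picard, SAMtools, bedtools 2.25.0 and R 2.14.0 without saying what each did. Each list came from 1 sample, per the labels. The H3K27ac and H3K4me3 lists of WT tumours were used only for whether a peak lay in a region. Their deposited scores, fold enrichment ratios and -log10 p-values and q-values, which the authors' peak caller gave, did not enter.

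Islands were merged over the 8 lists where they shared 1 bp, and 1 base was added to island ends for lengths. Where a library has no island its count is unknown, so reads were compared only over regions called in all 8 libraries. Within such a region, reads between islands are not counted, so a fold in reads includes any difference in called length. Read shares are per 1000000 autosomal island reads (RPM). Library measures were compared on the log2 scale by exact permutation of the libraries (two-sided, 56 arrangements), calls by Fisher's exact test, summed reads by edgeR 4.0.16 (quasi-likelihood, TMM factors), and called lengths and 1 Mb bins by limma 3.58.1 with a trend and, for bins, 10 kb added. Adjustment was Benjamini-Hochberg, with a threshold of 0.05. The edgeR SE was derived from the F statistic. DESeq2 1.42.0 was an alternative. R 4.3.3 and Python 3.11.15 were used, with SciPy 1.17.1, pandas 2.3.3, matplotlib 3.10.9 and numpy 2.4.6, and the edgeR and limma steps were tested on simulated data.

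Named regions were the 8 per direction with the largest log2 fold among common regions past the threshold whose groups do not overlap, the 6 per direction with most reads among fully separated calls, and the 4 common regions with the highest mean share. The groups, measures and regions were chosen with earlier results of these data known. Leaving out tumours 10 and 11 together, and matching lists by covered length, were chosen after seeing the data. The gene names available here are placed on GRCm38 and the lists on mm9, so the planned gene lists and cell type markers were not applied, tissue identity was not checked against markers, and what annotation lies at each region is not stated. Chromosomes of the Hox clusters are from RefSeq GRCm38.p6. Input DNA samples were not analysed here. Libraries within a group differed by more than counting noise, so no list was a copy of another, which does not show that they are separate animals.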

Additional observations from a re-analysis of the deposited data

Results flagged for a closer look

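Library measures, read shares of named regions and chromosome shares of covered length made 50 groups of 5 tumour values. They were examined for a single library far from the others, and 3 were found, all of them read shares of regions. Chance marks about 1 in 20 such groups. At chr2:166107401-166258600 tumour 10 stood at 430.0 reads per 1000000 autosomal island reads (RPM), far above the other tumours. At chr9:102114601-102179800 tumour 10 stood at 78.3 RPM, again above the rest. At chr6:52093001-52284600 tumour 11 stood at 3055 RPM and the others at 1759 to 1931. All 3 regions were lower in tumours than in neurospheres, and these libraries did not reach the neurosphere level. Tumour 10 had the most island reads and tumour 11 the fewest.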

How the results depend on the processing

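No paired analysis was possible because the tumours carry numbers and the neurospheres letters, and only the neurospheres have an experiment number. With the same number of top islands, covered length (log2 -0.0901) and median width (0.00198) turned direction, as covered length did without tumour 10 (-0.11), and the cause was not tested. The read share of the 1000 strongest islands kept its direction in all alternatives run but did not pass in females alone (-0.80), without tumours 10 and 11 (-0.72) or at matched covered length (-0.41). It did not pass without any 1 tumour (exact permutation p = 0.0571) or any 1 neurosphere (exact permutation p = 0.0952) either. Apart from matched covered length, these fits cannot reach 0.05 by their size. Tumour-only regions numbered 534 with the same number of top islands, 218 (against 1086 neurosphere-only) when islands had to cover 50% of a region, 311 (against 997) with the 10000 densest islands and 2090 without tumours 10 and 11, and neurosphere-only regions 1456 with the same number and 1630 without those tumours. Common regions called in reads were 1066 higher and 273 lower without composition factors, 198 and 238 in females, and 1163 and 1272 over regions called in at least 3 libraries with uncalled ones as 0. Called length gave 5 shorter regions with sex as a term, 6 longer and 1 shorter in females, and 172 and 103 without tumours 10 and 11. Bins numbered 119 and 174 at 0.5 Mb, 200 and 241 when scaled, 3 and 23 in females, and 256 and 184 without tumours 10 and 11. Leaving out 1 library at a time gave log2 differences of -0.11 to 0.38 for covered length, 0.38 to 0.62 for island number, -0.45 to -0.20 for median width, -0.51 to -0.23 for the width at 50% of covered length, and -0.78 to -0.68 for the share. Counts then ranged from 961 to 1806 tumour-only and 969 to 1553 neurosphere-only regions, 232 to 592 higher and 265 to 550 lower in reads, 16 to 245 longer and 2 to 47 shorter, and 13 to 269 higher and 32 to 143 lower bins. Of the 20 named common regions, 17 kept their call in every alternative fit they entered, 3 lost it in some and none reversed. Island lists give neither depth nor background, so an absent island can be a weak one.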
